A study of Homo sapiens with 8 samples.

Results

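The prostate kallikreins KLK2, KLK3, KLK4 and KLK15 and the prostate markers ACP3, FOLH1 and PSCA were followed over 8 arrays. These 7 genes, of 20172 named in the annotation, were picked by name as genes known for their expression in prostate epithelium. They had 8 of the 33297 probe sets in the deposited table, of which 21214 carried at least 1 gene symbol and entered the tests. KLK2, KLK3, KLK4, KLK15, ACP3 and PSCA had 1 probe set each. FOLH1 had 2 (7942998 and 7948058), and both also carry the symbol of FOLH1B, a near-identical copy of part of FOLH1, so the values belong to both genes together.

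The arrays held total RNA of 2 established prostate cancer cell lines. LNCaP is known to respond to androgen, while DU145 is known to grow without it. Each sample of a line received 1 of 4 constructs: miR-29b, a negative control miRNA (nc), an siRNA against TET2 (siTET2) or a control siRNA (siControl). RNA was taken 72 h after transfection from cells in RPMI medium with 10% FBS, and no source used here says whether androgen was added. Each combination of line and construct had 1 array, and only 1 construct against TET2 is labelled. The TET2 protein oxidises 5-methylcytosine, a step towards DNA demethylation, and miR-29b belongs to a family of small regulatory RNAs that lower their target transcripts.

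KLK3 is prostate-specific antigen, a serine protease that liquefies semen by cutting the semenogelins. KLK2 is a close relative that can activate its precursor, KLK4 is a further secreted protease, and KLK15 is another kallikrein reported to activate the KLK3 precursor in vitro. In luminal prostate cells androgen is known to drive the transcription of KLK2 and KLK3. ACP3 is prostatic acid phosphatase, FOLH1 is prostate-specific membrane antigen, a folate hydrolase on the cell surface, and PSCA is a lipid-anchored surface protein of the LY6 family.

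The mature miRNA is shown because it is the transfected agent. The labels do not name its arm, and the line below is the 3′ arm in RefSeq, the same in the copies MIR29B1 on chromosome 7 and MIR29B2 on chromosome 1 (GRCh38.p14). The capitals mark the seed, bases 2 to 8.
hsa-miR-29b-3p: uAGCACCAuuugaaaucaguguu

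The 250 bases before the gene start of KLK3 and KLK2 are shown because these neighbouring proteases were high together in LNCaP and low together in DU145. They lie at chr19:50854665-50854914 for KLK3 and at chr19:50873189-50873438 for KLK2, both on the plus strand of GRCh38.p14, as RefSeq's table gives them. The capitals mark 2 matches in each, a relaxed androgen response element (GNACANNNNGTNC) and a TATA motif (TATAAA) found on the opposite strand.
KLK3: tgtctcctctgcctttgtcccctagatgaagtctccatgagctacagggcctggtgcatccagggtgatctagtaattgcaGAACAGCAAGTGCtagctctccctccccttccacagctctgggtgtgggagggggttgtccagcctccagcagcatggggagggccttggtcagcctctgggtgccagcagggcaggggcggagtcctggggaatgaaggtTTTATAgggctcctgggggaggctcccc
KLK2: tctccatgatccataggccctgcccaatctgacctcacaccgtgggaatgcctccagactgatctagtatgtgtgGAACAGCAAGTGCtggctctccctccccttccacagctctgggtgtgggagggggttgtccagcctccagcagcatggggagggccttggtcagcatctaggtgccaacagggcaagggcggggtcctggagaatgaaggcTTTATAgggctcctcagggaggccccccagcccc
Of the aligned bases, 205 of 241 (85.1%) were identical. The element read GAACAGCAAGTGC in both, at positions -169 to -157 in KLK3 and -175 to -163 in KLK2, counted from the gene start. The shorter motif AGAACA, which overlaps it, was matched in KLK3 and not in KLK2. Both strands of 35116 RefSeq windows of the same kind were searched, and 1.81% held the relaxed element, 12.4% the shorter motif and 10.7% the TATA motif. The windows of KLK4, KLK15 and ACP3 held no match to either androgen motif, and 1 of 2 windows of KLK15 held TATAAA. These motifs were chosen with the sequences in view, and a match of letters is not a bound site.

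As a check of the cells and of the siRNA, 6 to 7 of 7 LNCaP marker genes lay above the array's median in LNCaP arrays, against 1 of 7 in DU145 arrays, and 1 of 9 DU145 marker genes did so in LNCaP arrays, against 9 of 9 in DU145 arrays. Immune markers lay above the median for 0 of 5 genes in any array, fibroblast markers for 0 to 1 of 6, basal markers for 0 to 1 of 4 and neuroendocrine markers for 2 of 5. TET2 probe set 8096675, of larger mean level in LNCaP, read 7.89 in LNCaP siTET2 and 9.01 in LNCaP siControl, and 6.60 in DU145 siTET2 and 7.85 in DU145 siControl. The miR-29b arrays gave 8.59 for LNCaP, beside 9.24 on its nc array, and 7.79 for DU145, beside 7.96. The other TET2 probe set, 8096669, showed smaller gaps: 7.92 with siTET2 and 8.76 with siControl in LNCaP, 6.95 and 7.86 in DU145, and with miR-29b 8.42 beside 8.76 on nc in LNCaP and 7.81 beside 7.88 in DU145. Array medians over listed probe sets were 7.64 to 7.71 in LNCaP and 7.34 to 7.39 in DU145.

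FOLH1, KLK3, ACP3, KLK2 and KLK4 were among the probe sets that set the lines apart most. The FOLH1 probe sets had the largest and the second largest excess in LNCaP of all 21214, KLK3 ranked 8, and ACP3, KLK2 and KLK4 ranked 67, 87 and 115. KLK15 ranked 768 at a far smaller size. PSCA, at rank 13164, hardly separated the lines.

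FOLH1 probe set 7942998 read 12.73 with miR-29b, 12.63 with nc, 12.82 with siTET2 and 12.80 with siControl in LNCaP, against 3.25, 3.24, 3.27 and 3.19 with the same constructs in DU145 (log2 levels). Probe set 7948058 read 12.93, 12.83, 12.94 and 12.91 in LNCaP, against 3.58, 3.46, 3.58 and 3.44 in DU145, in the same order. Within its own array FOLH1 stood at the 99.1 to 99.5 percentile of listed probe sets in LNCaP, and at the 1.17 to 3.58 percentile in DU145. The limma fit gave LNCaP minus DU145 as 9.51 (SE 0.0747) and 9.39 (SE 0.0711) on the log2 scale, each at a limma adjusted p of 1.2e-10. No detection call was used here, so whether the DU145 values of FOLH1 and the other members lay above background was not tested, and folds below are those of the deposited values.

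KLK3 read 12.99 with miR-29b, 13.04 with nc, 13.15 with siTET2 and 13.17 with siControl in LNCaP, against 5.19, 4.94, 5.18 and 5.40 in DU145. It stood at the 99.5 to 99.6 percentile in LNCaP, and at the 18.9 to 23.8 percentile in DU145. The lines differed by 7.91 (SE 0.084, 240.2-fold, limma adjusted p = 2.78e-10). KLK2 read 9.97, 10.17, 10.32 and 10.21 in LNCaP, against 5.54, 5.29, 5.43 and 5.32 in DU145, with the constructs in the same order. Its difference was 4.77 (SE 0.0983, 27.3-fold, limma adjusted p = 3.38e-09). KLK4 read 10.13, 10.34, 10.58 and 10.17 in LNCaP, against 5.91, 5.96, 5.91 and 6.10 in DU145. Its difference was 4.34 (SE 0.103, 20.2-fold, limma adjusted p = 6.91e-09). For these 3 proteases no DU145 array came within 4 log2 units of the lowest LNCaP array, and the gap was 7.58 for KLK3, 4.43 for KLK2 and 4.04 for KLK4.

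ACP3 read 9.49 with miR-29b, 9.30 with nc, 9.71 with siTET2 and 9.43 with siControl in LNCaP, against 4.26, 4.22, 4.46 and 4.35 in DU145, a difference of 5.16 (SE 0.0747, 35.7-fold, limma adjusted p = 7.4e-10). It stood at the 75.6 to 81.0 percentile in LNCaP and at the 10.3 to 12.3 percentile in DU145.

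KLK15 was the weakest kallikrein of the group by this contrast. It read 7.42, 7.42, 7.52 and 7.50 in LNCaP, against 5.77, 5.32, 5.54 and 5.28 in DU145, with the constructs in the order given for ACP3. All LNCaP arrays lay above all DU145 arrays, by 1.99 on average (SE 0.102, 3.96-fold, limma adjusted p = 5.29e-07), yet KLK15 stayed below its own array's median in all 8 arrays. PSCA read 7.43, 7.67, 7.50 and 7.54 in LNCaP, against 7.15, 7.36, 7.13 and 7.24 in DU145. Its percentile was 45.4 to 49.3 in LNCaP and 47.0 to 49.6 in DU145. On the deposited scale PSCA was 0.31 higher in LNCaP (SE 0.0699, limma adjusted p = 0.00282), but the difference was -0.0075 (limma adjusted p = 0.928) with arrays centred on their medians and -0.10 (limma adjusted p = 0.195) after quantile normalization of all 8 arrays.

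**Figure D1:**
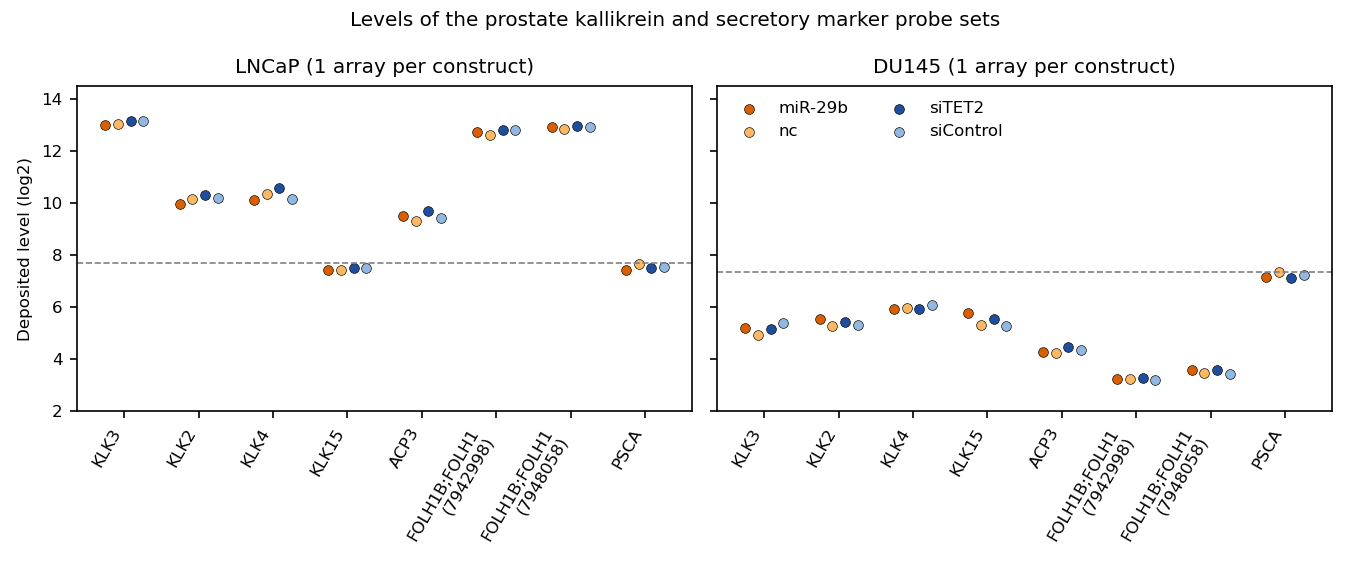
Deposited log2 level (vertical axis) of each of the 8 probe sets in LNCaP (left) and DU145 (right), 1 point per array and construct, with the line's mean array median dashed. KLK3 and both FOLH1 probe sets lie near 13 in LNCaP, and PSCA alone lies near the dashed line in both cell lines.

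All 8 member probe sets passed the limma test for LNCaP minus DU145 as higher in LNCaP, beside 66.7% of all listed probe sets, and 7 of 8 were also at least 2-fold higher, beside 20.8%. In 8 of 8 the LNCaP arrays all lay above the DU145 arrays, beside 62.4% of all. The median difference was 4.97 over the 8 and 0.53 over all listed probe sets. That overall shift depends on the scaling: 14148 probe sets were higher and 3927 lower as deposited, 10339 and 6121 after centring (median 0.21), and 7709 and 6673 after quantile normalization (median 0.05). Relative to the median of all probe sets on the deposited scale, the differences were 8.98 and 8.87 for FOLH1, 7.38 for KLK3, 4.63 for ACP3, 4.25 for KLK2, 3.81 for KLK4, 1.46 for KLK15 and -0.21 for PSCA. The 4 arrays of a line are 4 constructs and the labels name no separate cultures, and a p-value here reflects only how these arrays scatter, technically or otherwise.

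The kallikreins form 1 cluster on chromosome 19, and the size of the difference between the lines varied along it, from 7.91 for KLK3 to 0.54 for KLK14. In RefSeq's order it runs KLK1, KLK15, KLK3, KLK2, the pseudogene KLKP1, KLK4 and then KLK5 to KLK14, 16 genes and pseudogenes that all had their own probe set. In LNCaP, KLK3, KLK2, KLKP1 and KLK4, 4 neighbours in a row, lay above the array median in 4 of 4 arrays, and the other 12 did so in 0 arrays. Probe sets differ in how brightly they bind, so this position does not rank the genes by transcript level. In DU145 none of the 16 did so in any array. KLKP1, named after its values were seen, read 7.88 with miR-29b, 8.19 with nc, 8.22 with siTET2 and 8.30 with siControl in LNCaP, against 5.07, 5.09, 4.85 and 5.09 in DU145, a difference of 3.12 (SE 0.0995, limma adjusted p = 3.21e-08). Of the 11 kallikreins outside the group, 11 were called higher in LNCaP by limma, beside 66.7% of all listed probe sets. Of these, 3 were at least 2-fold higher, a share near the 20.8% of all. The median was 0.89 against 0.53 over all probe sets, a shift that depends on the scaling, and 0 of the 11 reached the median of any array. Among them KLK1 had the largest (1.17) and KLK14 the smallest difference (0.54).

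**Figure D2:**
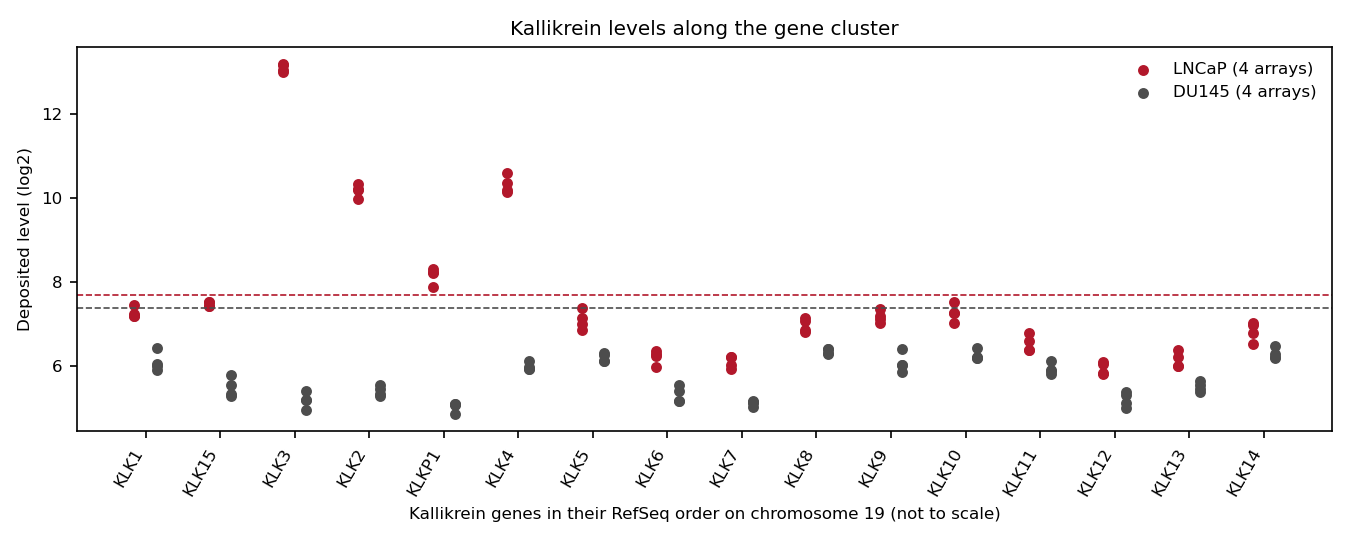
Deposited log2 level (vertical axis) of the 16 kallikrein genes and pseudogenes in RefSeq's order along chromosome 19 (horizontal axis, not to scale), 1 point per array, with each line's mean array median dashed. KLK3, KLK2, KLKP1 and KLK4 stand above the LNCaP median, and every other point lies below its own line's median.

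Other luminal prostate genes were also compared between the lines, gene by gene in the limma fit over all listed probe sets. There 66.7% of all were called higher as deposited, a share that falls with the other scalings given above, and 20.8% were at least 2-fold higher. Of 14 other secreted or surface prostate proteins, 13 were called higher in LNCaP and 0 lower, 9 of them at least 2-fold higher, with a median of 2.04 against 0.53 for all. They included TMEFF2, a membrane protein with follistatin-like modules (7.72), AZGP1, a secreted lipid-mobilising glycoprotein (6.14), SPON2, a matrix protein (5.98), and CRISP3, a cysteine-rich secretory protein (5.01). Of 19 androgen-induced genes, 16 were higher and 2 lower, 13 at least 2-fold higher, with a median of 1.80, among them HPGD, which degrades prostaglandins (6.09), HERC3, a ubiquitin ligase family member (4.51), ZBTB16, a transcriptional repressor (4.15), and SLC45A3, the transporter prostein (3.85). Of 10 luminal transcription factors and coregulators, 10 were higher and 6 at least 2-fold, with GRHL2 at 6.22, HOXB13 at 5.41, SPDEF at 4.38 and FOXA1, the pioneer factor, at 2.18. No level floor was applied to these counts. The array median was reached in at least 1 array by 7 of the 14 proteins, 16 of the 19 androgen-induced genes and 10 of the 10 factors.

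Genes that act on the proteases or are cut by them were counted the same way, with no level floor. The array median was reached in at least 1 array by 4 of 8 inhibitors and membrane serine proteases, 4 of 6 substrates and 9 of 12 relatives. Of 8 inhibitors and membrane serine proteases, 7 were higher in LNCaP and 0 lower, 4 at least 2-fold higher, led by the proteases HPN (3.28) and ST14 (2.60), and the inhibitor SPINT1 was 0.92 higher. SPINT2, a second inhibitor of such proteases, differed by -0.02 (limma adjusted p = 0.867). Of 6 kallikrein substrates, 4 were higher and 2 lower, a share of higher calls near the 66.7% of all probe sets. FN1, fibronectin, was 4.46 higher, and IGFBP3, an IGF-binding protein, 0.41 higher, while PLAU, urokinase, fell by 5.72 and F2R, a thrombin receptor, fell by 0.63 in LNCaP relative to DU145. Of 12 relatives of ACP3, FOLH1 and PSCA, 5 were higher and 5 lower, with a median of -0.11. The PSCA relatives LY6K (-3.57), CD59 (-1.56) and LYPD3 (-0.80) were lower in LNCaP, and the acid phosphatase ACP4 was 0.84 higher.

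For each probe set above the array median in LNCaP, the genes of most similar pattern were taken as those with the smallest root mean square difference of centred log2 levels over the 8 arrays. The 10541 candidates had 1 symbol and reached the array median in at least 4 arrays. Centring ran over both lines, so the choice rests largely on the gap between them (4.77 for KLK2, 4.81 for ABCA12, 4.76 for FXYD3, 4.66 for NLRP2). Likeness among constructs within LNCaP was not tested. For KLK3 these were NCAM2, a cell adhesion molecule (0.17), LCP1, an actin bundler (0.24), and TMEFF2 (0.25). For KLK2 they were ABCA12, a lipid transporter (0.08), FXYD3, a regulator of the sodium pump (0.11), and NLRP2 (0.11). KLK4 was nearest to SLC7A8, an amino acid transporter (0.10), RLN1, relaxin 1 (0.11), and CDYL2 (0.13), and ACP3 to AP1M2, a clathrin adaptor subunit (0.15), RALYL (0.16) and ZNF300 (0.18). The FOLH1 probe sets were nearest to NETO1, an accessory subunit of glutamate receptors, at 0.56 for 7942998 and 0.51 for 7948058, then to TMEFF2 (0.91 and 0.86) and NCAM2 (0.92 and 0.86).

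The second question was whether the treatments moved these genes. With miR-29b, the prostate markers of LNCaP stayed within 1.2-fold of nc. KLK2 differed by -0.21, KLK4 by -0.20, KLK3 by -0.05, ACP3 by 0.20 and the FOLH1 probe sets by 0.10 and 0.09 (log2 differences between single arrays). KLK15 (-0.0017) and PSCA (-0.24) lay below the level floor, which asks that the higher of the arrays compared reach its array's median. Of the 6 probe sets above the floor, 0 were at least 1.2-fold lower and 0 at least 1.2-fold higher, beside 5.13% and 9.13% of the 10888 probe sets above the floor. Their median was 0.02, as was that of all.

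Set against the other control array, siControl, the miR-29b array differed by -0.18 for KLK3, -0.24 for KLK2, -0.04 for KLK4, 0.06 for ACP3, -0.07 and 0.01 for FOLH1, -0.08 for KLK15 and -0.11 for PSCA. KLK3, KLK2, KLK4, KLK15 and PSCA thus had their lowest LNCaP level with miR-29b, while ACP3 and FOLH1 had theirs with nc. For KLK15 the difference from nc was only -0.0017, and the share of all probe sets lowest with miR-29b was not counted. The neighbour KLKP1 differed by -0.32 from nc. Each group had a single array, so these differences have no replicate check, and in bulk RNA fewer cells making a transcript cannot be told apart from less of it per cell.

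The siRNA against TET2 left KLK3, KLK2 and FOLH1 near siControl in LNCaP, and KLK4 and ACP3 read higher. KLK4 was 10.58 with siTET2 against 10.17 with siControl, a difference of 0.41 or 1.33-fold. Against nc it was 0.24, since siControl itself lay 0.17 below nc. ACP3 was 9.71 with siTET2 against 9.43 with siControl, a difference of 0.28 or 1.21-fold, and 0.41 against nc. Of all probe sets above the floor, 7.15% differed by at least as much as KLK4 in either direction, and 16.4% by at least as much as ACP3.

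KLK2 differed by 0.11 from siControl, FOLH1 by 0.02 and 0.03, KLK3 by -0.02, KLK15 by 0.01 and PSCA by -0.04. In all, 2 of 6 probe sets above the floor were at least 1.2-fold higher, beside 7.49% of 10862, and 0 reached 1.5-fold. With arrays centred on their medians ACP3 missed the 1.2-fold line, and against nc KLK4 did, which left 1 of 6 each time. The median was 0.07 over the 6 and 0.01 over all. KLK2, KLK4, KLK15, ACP3 and both FOLH1 probe sets had their highest LNCaP level with siTET2, KLK3 with siControl and PSCA with nc. For KLK15 and FOLH1 this order rests on the small differences just given, and the share of all probe sets highest with siTET2 was not counted.

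The control arrays of LNCaP differed from each other as well. There, siControl minus nc was 0.13 for KLK3, 0.04 for KLK2, -0.17 for KLK4, 0.13 for ACP3, 0.17 and 0.08 for FOLH1, 0.08 for KLK15 and -0.13 for PSCA. None of 6 was at least 1.2-fold higher there, beside 16.4% of 11005. Over the 4 LNCaP arrays the SD was 0.20 for KLK4, 0.17 for ACP3, 0.15 for KLK2, 0.10 for PSCA, 0.09 and 0.05 for FOLH1, 0.09 for KLK3 and 0.05 for KLK15. The median SD of the 11165 probe sets above the median in LNCaP was 0.12, so KLK4 and ACP3 varied more than most and FOLH1 and KLK3 less.

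**Figure D3:**
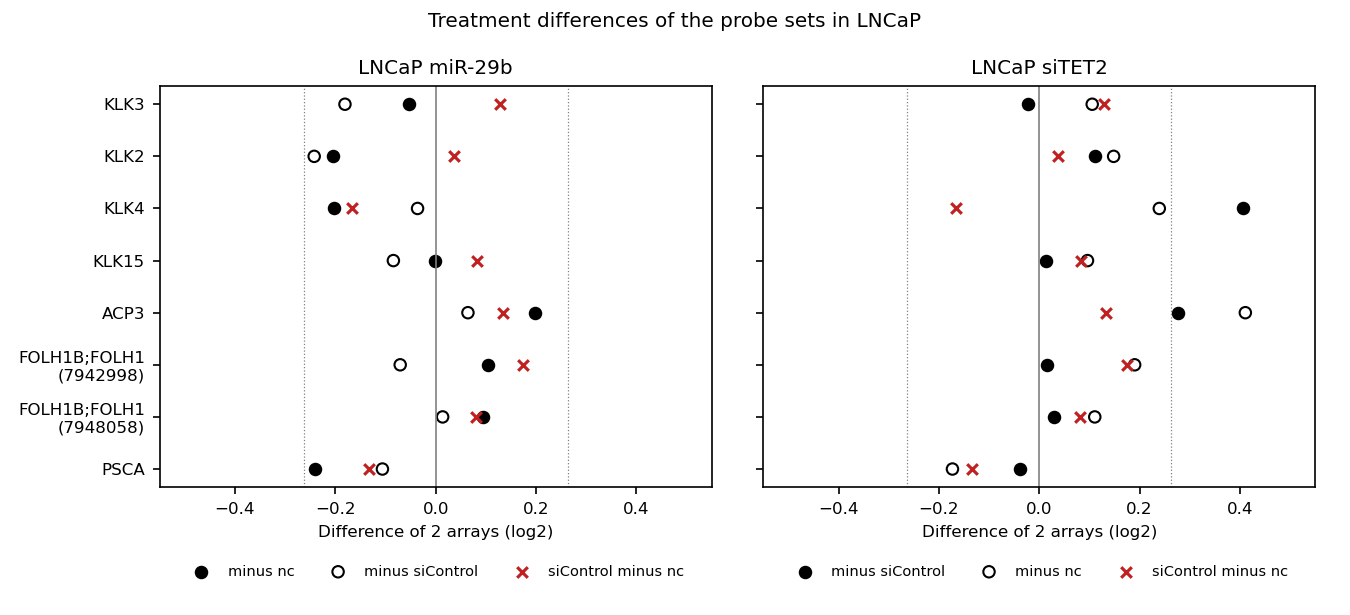
Log2 difference between single LNCaP arrays (horizontal axis) for each probe set, with miR-29b (left) and siTET2 (right) set against their own control (filled), the other control (open) and the difference between both controls (crosses). Dotted lines mark 1.2-fold, which KLK4 (0.41) and ACP3 (0.28) pass with siTET2 against siControl.

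Androgen-induced genes outside the group were set beside the markers in LNCaP. With miR-29b, 15 of 19 lay above the floor, and their median was -0.27 against 0.02 for all probe sets, with 8 at least 1.2-fold lower, beside 5.13% of all, and 0 higher. With siControl in place of nc 5 were lower, and with the controls averaged 6. HPGD differed by -0.67, TRPM8, a cation channel, by -0.50, SLC45A3 by -0.48 and NDRG1, a stress and androgen response gene, by -0.40, but against siControl SLC45A3 differed by -0.16 and NDRG1 by -0.24. With siTET2 the median was 0.27 against 0.01, with 8 of 15 at least 1.2-fold higher, beside 7.49% of all, and 0 lower. It was 6 of 15 against nc and against the mean of both controls. HPGD differed by 0.54, PMEPA1 by 0.51, ELL2, an elongation factor, by 0.40 and NDRG1 by 0.39. Against the other control array the medians of the androgen-induced genes were -0.21 with miR-29b and 0.21 with siTET2, beside -0.05 and 0.17 for the 6 markers. Between the controls, siControl minus nc, the median was -0.02 for the androgen-induced genes, with 2 at least 1.2-fold higher and 2 lower, and 0.10 for the markers. The difference between the lists was not tested. In DU145, 11 of the 19 androgen-induced genes lay above the floor. With siTET2 4 of them were at least 1.2-fold higher, beside 8.84% of all, and 0 lower, with a median of 0.08 against -0.01 (3 higher against nc). With miR-29b 2 were lower, beside 5.23% of all, and 0 higher, with a median of -0.0017 against -0.04 (0 lower against siControl).

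**Figure D4:**
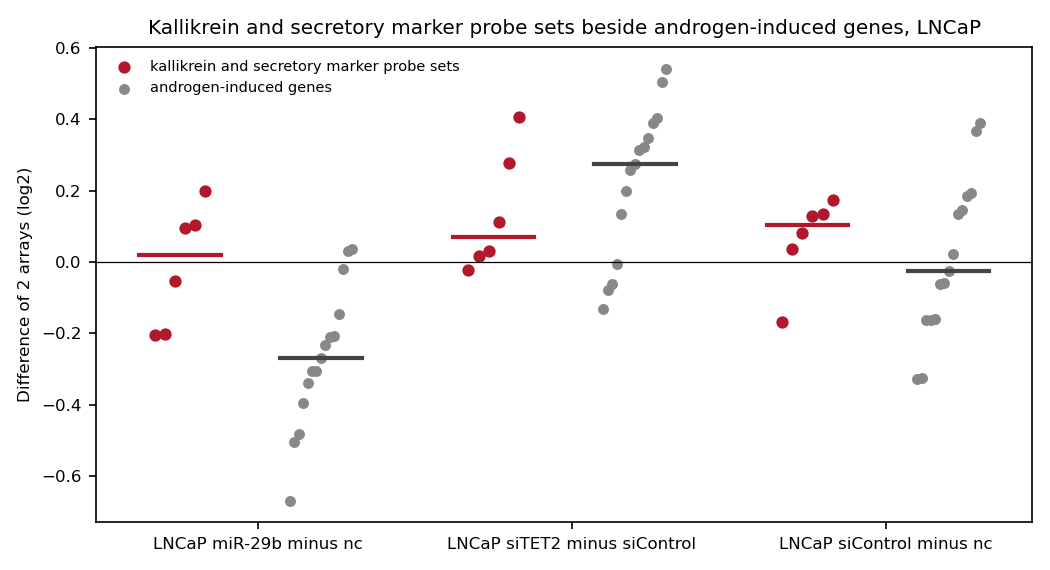
Log2 difference between single LNCaP arrays (vertical axis) for the 6 kallikrein and secretory marker probe sets above the level floor (red) and 15 androgen-induced genes (grey), in 3 contrasts, 1 point per probe set, with medians as bars. The grey medians are -0.27, 0.27 and -0.02, and the red ones 0.02, 0.07 and 0.10.

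The other lists depended on which control was used. Other prostate secreted and surface proteins had a median of -0.06 over 6 genes with miR-29b (-0.10 over 7 against siControl), and of -0.02 over 7 with siTET2 (0.18 against nc). CRISP3 differed by -0.55 and AZGP1 by -0.34 with miR-29b (-0.39 and -0.50 against siControl). STEAP1, a metalloreductase family member, differed by 0.21 from nc and by -0.10 from siControl, so its sign turned with the control. With siTET2 TMEFF2 differed by 0.65 and AZGP1 by 0.26 (0.51 and 0.42 against nc), while DPP4, a cell-surface peptidase, differed by -0.33 from siControl and by 0.18 from nc.

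Luminal transcription factors and coregulators had medians of -0.04 with miR-29b and 0.04 with siTET2 over 10 genes (-0.02 in both against the other control), with SPDEF at -0.19 with miR-29b and the coactivator NCOA2 at -0.42 with siTET2 (-0.16 and -0.41). Inhibitors and membrane proteases had medians of -0.13 and 0.18 over 4 genes, but of -0.02 and 0.0046 against the other control. SPINT1 with miR-29b was -0.40 from nc and -0.04 from siControl, and ST14 with siTET2 was 0.19 from siControl and 0.0034 from nc. Among substrates FN1 differed by -0.26 with miR-29b and F2R by 0.18 with siTET2 (-0.35 and 0.29 against the other control). Among relatives CD59 differed by 0.24 with miR-29b and ACP6 by 0.17 with siTET2 (0.09 and 0.31 against the other control). None of the 11 other kallikreins reached the floor.

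In DU145 0 of 8 probe sets reached the floor, so the differences there are between values below the array median. With miR-29b minus nc, KLK15 differed by 0.45, KLK3 by 0.25, KLK2 by 0.25, FOLH1 by 0.01 and 0.12, ACP3 by 0.04, KLK4 by -0.05 and PSCA by -0.21. With siTET2 minus siControl, KLK15 differed by 0.27, KLK2 by 0.12, ACP3 by 0.11, FOLH1 by 0.08 and 0.14, KLK3 by -0.23, KLK4 by -0.19 and PSCA by -0.11. Between the DU145 controls KLK3 alone differed by 0.47. The signs were opposite in LNCaP and DU145 for 3 of 8 probe sets with miR-29b and for 1 of 8 with siTET2, and 0 lay above the floor in both lines, so the difference between lines was not tested.

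The limma fit over all listed probe sets also gave 1 effect per construct comparison, the average of the LNCaP and DU145 differences. Such an average can hide opposite signs, as for KLK4 with siTET2, at 0.41 in LNCaP and -0.19 in DU145. For siTET2 minus siControl 0 of 8 members were called, and 0 had an unadjusted p below 0.05, with limma adjusted p from 0.718 to 0.928. The background was 0.00471%, 1 probe set lower (ADCY10P1, a pseudogene, -1.18, SE 0.099, limma adjusted p = 0.0426), and 1634 had an unadjusted p below 0.05. TET2 itself, the target of the siRNA, was not called, although both its probe sets read lower with siTET2 in both lines. The lack of calls therefore does not show that the members were unmoved. The 95% limma interval of the siTET2 effect was -0.05 to 0.43 around 0.19 for ACP3, -0.23 to 0.45 around 0.11 for KLK4, -0.20 to 0.44 around 0.12 for KLK2 and -0.40 to 0.15 around -0.13 for KLK3. FOLH1 had 0.05 (-0.19 to 0.29) and 0.08 (-0.15 to 0.32).

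For miR-29b minus nc, limma called 0 of 8 members and 0% of all listed probe sets, with 0 members and 519 probe sets at an unadjusted p below 0.05. PSCA came nearest, at -0.23 (95% interval -0.45 to 0.0014, limma adjusted p = 1). KLK3 had 0.10 (-0.17 to 0.37), KLK2 0.02 (-0.30 to 0.34), KLK4 -0.13 (-0.46 to 0.21) and ACP3 0.12 (-0.12 to 0.36). For siControl minus nc, limma also called 0 of 8 and 0% of all, with 1 member and 1778 probe sets at an unadjusted p below 0.05. That member was KLK3, at 0.30 (95% interval 0.02 to 0.57, limma adjusted p = 0.585), a wider departure than its treatment effects. Of 19 androgen-induced genes, limma called 0 with either treatment, and at an unadjusted p below 0.05 there were 5 higher with siTET2 and 4 lower with miR-29b. Over all listed probe sets that share was 7.7% with siTET2 and 2.45% with miR-29b, both directions together. A member near background in DU145 can carry little of an effect common to both lines, and the LNCaP values above have no test of their own.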

How the data were processed

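The deposited table holds log2 levels of 33297 probe sets on 8 Affymetrix arrays, which the authors made with Affymetrix Expression Console and RMA per the submitters' processing notes. The log base and which arrays were normalized together are not given in the sources used here, and the values were read as log2. Total RNA was labelled with the Affymetrix whole transcript kit, per the labels' protocols. Probe sets were named from the platform annotation through Entrez identifiers and RefSeq: 19460 had 1 symbol, 1754 several and 12083 none listed, and 19429 matched RefSeq with 0 symbols changed. The number of arrays limits the precision.

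From these values, differences of 2 arrays within a line were taken with no p-value and counted at 1.2-fold, 1.5-fold and 2-fold, among listed probe sets whose higher array reached its 50th percentile. limma 3.58.1 (lmFit and eBayes in R 4.3.3) was fitted on 21214 listed probe sets of all 8 arrays with line and construct as terms, 3 residual degrees of freedom, Benjamini-Hochberg adjustment and a threshold of 0.05. Python 3.11.15, pandas 2.3.3 and Biopython 1.88 did the rest. Data over 21214 probe sets were simulated with independent normal noise, and the siTET2 change was put into the siTET2 arrays of both lines. The siTET2 effect was recovered for 99% of 100 probe sets changed by 1 log2 unit and for 31% changed by 0.5, with 9 false calls. The line difference was recovered for 100% and 80%, with 9 false calls. A change in LNCaP alone was not simulated, so these shares do not hold for members below the floor in DU145. Named genes were every member, TET2, up to 4 members per list and contrast with the largest absolute difference above the floor, and the 3 of most similar pattern, with exceptions marked. For PSCA and FOLH1 no promoter is shown.

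The members, the 7 gene lists, the marker lists and the alternatives were chosen with earlier results of these data known. Alternatives were the other control, the mean of both controls, centring, quantile normalization, other floors, other probe set filters, a variance trend, other model terms and leaving out each array.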

Additional observations from a re-analysis of the deposited data

How the results depend on the processing

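Each line and construct had 1 array, so no line held replicate pairs. The limma fit compared the constructs within lines through its term for line. Among comparisons across the members and lists, 104 values under an alternative were classed as near the main value and 9 as moved. A count that differed a little from its main value was still classed as near it. So was a count of 0 under both, and the class does not measure direction. With siTET2 in LNCaP, 2 members at least 1.2-fold higher became 1 with the other control and 1 with centred arrays, the 9 list genes higher became 17 without the level floor, and the 2 list genes lower became 1 with the mean of both controls and 1 with the 75th percentile floor. With miR-29b, 0 list genes higher became 2 with the other control, 1 with the mean of both controls and 1 without the floor. Of the members, 5 entered the limma fit limited to probe sets at or above the median mean level over all 8 arrays, and 5 were called for LNCaP minus DU145. They passed that filter only through their LNCaP levels, so these calls give no further support to the line difference. The sign of PSCA turned for LNCaP minus DU145, to -0.0075 with centring and -0.10 with quantile normalization, and PSCA was called with neither. Centring subtracts each array's median, 7.64 to 7.71 in LNCaP and 7.34 to 7.39 in DU145, and why these differ was not tested. Leaving out each array gave 8 called members for the line difference and 0 for each treatment. Over all probe sets, limma called 0 higher and 1 lower with siTET2, against 13 and 75 with a variance trend, 3 and 31 with the level filter, and 0 without any 1 array. For single members, 504 values stayed, 2 moved and 2 reversed. A difference between single LNCaP arrays was classed as staying if it shifted by no more than siControl minus nc. The other control shifts it by exactly that amount, and the mean of both controls by less. These settings could thus hardly class a value as moved, and the count says little about the choice of control. FOLH1 probe set 7942998 with miR-29b differed by 0.10 from nc and by -0.07 from siControl. A difference between single arrays cannot separate construct, dish and array.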
